A study of Mus musculus with 8 samples.

Results

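The genes of the 3 fibrinogen chains, *Fga*, *Fgb*, and *Fgg*, were examined in RNA-Seq of mouse pancreas. They were found by symbol among 48709 genes in each library, and all 3 were present. Pancreata came from male, 8-week-old mice of 2 genotypes, collected 24 hours after injection of saline or of palmitoleic acid (POA) and ethanol, which together induce alcoholic severe acute pancreatitis (FAEE-SAP). WT mice carried *Pfkfb3*, and cKO mice carried floxed *Pfkfb3* together with Cre driven by the *Pdx1* promoter (*Pfkfb3* fl/fl; *Pdx1*-Cre), which is active in the cells that form the pancreatic epithelium but not in its leukocytes or vessels. The 4 groups, WT saline, cKO saline, WT FAEE-SAP, and cKO FAEE-SAP, had 2 libraries each, and no source says whether the 2 came from separate mice, so p-values measure the spread between these libraries, which may be technical. The WT mice were purchased, and no source says that they were littermates of the cKO mice, so genotype and breeding cannot be told apart here.

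Fibrinogen is a soluble plasma protein built of paired Aα, Bβ, and γ chains, which *Fga*, *Fgb*, and *Fgg* encode. Thrombin cuts short peptides from the Aα and Bβ chains, and the resulting fibrin polymerizes and is crosslinked by factor XIII into the scaffold of a clot, which plasmin later dissolves. Nearly all plasma fibrinogen is made by hepatocytes, where the genes are kept active by liver-enriched factors such as C/EBP and are raised together in the acute-phase response by IL-6-type cytokines acting through STAT3. Transcription outside the liver has been described in inflamed epithelia.

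The 3 genes lie side by side within 42.1 kb of chromosome 3 (GRCm38, GENCODE vM21). *Fgg* (ENSMUSG00000033860.13) runs from 83007724 to 83015049 on the plus strand, *Fga* (ENSMUSG00000028001.16) from 83026076 to 83033627 on the plus strand, and *Fgb* (ENSMUSG00000033831.5) from 83040141 to 83049863 on the minus strand. *Fgb* thus faces the other 2 genes. Their exons sum to 2093, 3010, and 3810 bases. The sequences just upstream of the 3 start sites are shown because the genes have an IL-6-type response in the liver and because the levels of *Fga* and *Fgg* moved together here. They are RefSeq promoter sequences of GRCm38.p6, 5′ to 3′ on the strand of the gene, and capitals mark CTGGGA, the core of the IL-6 response element known from fibrinogen promoters.
Fga, chr3:83025903-83026075, plus strand: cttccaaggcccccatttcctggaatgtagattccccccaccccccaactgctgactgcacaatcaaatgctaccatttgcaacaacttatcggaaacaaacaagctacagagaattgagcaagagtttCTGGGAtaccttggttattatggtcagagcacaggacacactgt
Fgb, chr3:83049864-83050113, minus strand: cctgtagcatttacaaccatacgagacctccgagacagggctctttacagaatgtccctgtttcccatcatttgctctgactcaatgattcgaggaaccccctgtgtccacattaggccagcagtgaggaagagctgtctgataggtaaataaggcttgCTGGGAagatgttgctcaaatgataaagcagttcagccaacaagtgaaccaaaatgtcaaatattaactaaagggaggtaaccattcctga
Fgg, chr3:83007474-83007723, plus strand: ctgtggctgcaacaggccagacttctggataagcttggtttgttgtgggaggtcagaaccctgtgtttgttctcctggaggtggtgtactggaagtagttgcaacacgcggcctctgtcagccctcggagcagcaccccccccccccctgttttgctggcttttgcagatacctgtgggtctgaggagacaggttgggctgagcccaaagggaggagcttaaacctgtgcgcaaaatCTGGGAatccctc

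In the 250 bases before the RefSeq start, searched on both strands, CTGGGA occurred on the sense strand of all 3 genes, from 121 to 116 bases before the start of *Fga*, from 91 to 86 bases before that of *Fgb*, and from 13 to 8 bases before that of *Fgg*. The same letters were held by 27.0% of 32851 RefSeq promoters of that length. The longer CTGGGAA, which overlaps it, was found for *Fgb* and *Fgg* and in 9.10% of all promoters. TTCNNNGAA, the palindrome of STAT factors, was found for *Fga* and *Fgb* and in 7.02%. GCGCAA, part of a C/EBP palindrome, was found for *Fgg* alone of the 3 and in 5.34%, and TATAAA for none of the 3 and in 12.4%. The stretch of *Fga* shown ends at the first exon of GENCODE, so its last 77 bases before the RefSeq start are not printed.

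Values are RPKM, reads normalized to exonic length and to the total of the library. Library totals recovered from the smallest RPKM values and exonic lengths were between 22.9 and 37.8 M reads, and with them every value of the 3 genes came out as a whole number of reads. Acinar cell markers made up 27.7% to 32.5% of the summed RPKM in each library, which fits the labeled tissue. RPKM is a share of a library, and libraries were therefore also scaled by the median of ratios, with factors from 0.621 to 0.866 for saline, 1.94 and 2.02 for WT FAEE-SAP, and 0.975 and 1.05 for cKO FAEE-SAP. Scaled RPKM of *Pfkfb3* overlapped between the genotypes under both treatments (with FAEE-SAP 1.85 and 3.21 in WT, 1.74 and 2.82 in cKO), although as deposited it did not with FAEE-SAP (3.75 and 6.22 in WT, 1.82 and 2.75 in cKO). A value per gene cannot show the deletion of a few exons, so the genotypes are those of the labels. The first cKO saline library stands apart from the other 7. Enterocyte transcripts were high in it alone, with an RPKM of 5.52 for *Fabp2*, 6.65 for *Apoa4*, and 3.23 for *Alpi*, and values of the fibrinogen genes that rest on it are also given without it.

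*Fga* encodes the Aα chain, whose long C-terminal region takes part in crosslinking. Its RPKM as deposited was 1.27 and 2.77 in the WT FAEE-SAP libraries, from 88 and 273 reads. It was 0.0120 and 0.0645 in cKO FAEE-SAP (1 and 6 reads), 0.0819 and 0 in WT saline (7 and 0 reads), and 0.123 and 0 in cKO saline (14 and 0 reads). Both WT FAEE-SAP libraries thus lay above all 6 others, and the 3 remaining groups overlapped. Scaled RPKM was 1.03 ± 0.567 (SD, n = 2) in WT FAEE-SAP, 0.0388 ± 0.0386 in cKO FAEE-SAP, 0.0563 ± 0.0796 in WT saline, and 0.0992 ± 0.140 in cKO saline.

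*Fgg* encodes the γ chain, which holds sites for chain polymerization and for binding of platelet and leukocyte integrins. Its RPKM as deposited was 1.79 and 3.43 in WT FAEE-SAP, from 86 and 235 reads. It was 0 and 0.0309 in cKO FAEE-SAP (0 and 2 reads), 0.0505 and 0 in WT saline (3 and 0 reads), and 0.0759 and 0 in cKO saline (6 and 0 reads). The separation was that of *Fga*, with both WT FAEE-SAP libraries above the other 6. Scaled RPKM was 1.33 ± 0.627 (SD, n = 2) in WT FAEE-SAP, 0.0158 ± 0.0224 in cKO FAEE-SAP, 0.0347 ± 0.0491 in WT saline, and 0.0611 ± 0.0865 in cKO saline.

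*Fgb* encodes the Bβ chain, and it was the lowest of the 3 in both WT FAEE-SAP libraries. Its RPKM as deposited was 0.263 and 0.361 there, from 23 and 45 reads. It was 0 in both cKO FAEE-SAP libraries, where a count of 0 allows an RPKM of up to 0.0285 and 0.0255 at 3 reads. It was 0.0185 and 0 in WT saline (2 and 0 reads), and 0.0973 and 0.00836 in cKO saline (14 and 1 reads). As deposited, both WT FAEE-SAP libraries lay above the other 6. After scaling, the first cKO saline library, at 0.157, lay between the WT FAEE-SAP libraries at 0.130 and 0.186, so that the separation of *Fgb* from cKO saline depended on the scaling.

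**Figure D1:**
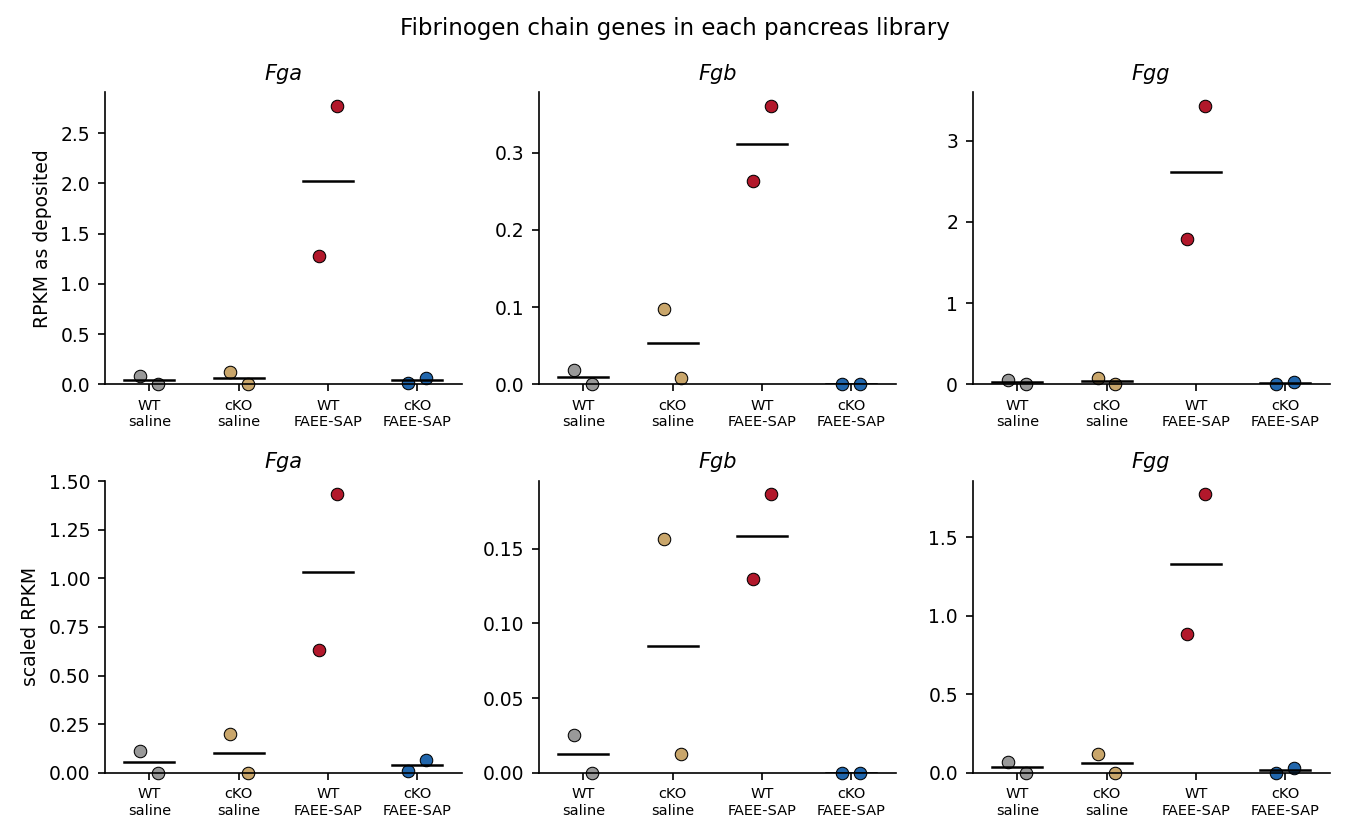
RPKM of *Fga*, *Fgb*, and *Fgg* in each of the 8 libraries (points) with group means (lines), as deposited (top) and scaled by the median of ratios (bottom). The vertical axes differ between genes. The WT FAEE-SAP libraries of *Fga* (1.27 and 2.77) and *Fgg* (1.79 and 3.43) lie above all others as deposited, and *Fgb* reaches 0.361 at most.

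FAEE-SAP against saline in WT mice addresses how the genes respond to alcoholic pancreatitis. *Fga* and *Fgg* rose. Log2 fold changes were taken from log2(scaled RPKM + 0.1) and so understate the changes of low genes. The log2 fold change was 3.05 for *Fga* (SE 0.56, adjusted p = 0.0352) and 3.61 for *Fgg* (SE 0.47, adjusted p = 0.0140), by limma with Benjamini-Hochberg adjustment over 10894 genes. Of all genes tested, 6.93% were called, meaning an adjusted p under 0.05 and a change of 2-fold or more. *Fga* and *Fgg* passed the minimum of 0.5 RPKM in at least 2 libraries only through the WT FAEE-SAP libraries. They therefore had to differ, and their number is not evidence of its own. *Fgb* was under this minimum and was not tested. Its summed reads, 68 against 2, correspond to a scaled ratio of 13.7 (95% exact interval 3.66 to 116). The ratio of summed reads was 20.8 (10 to 52.2) for *Fga* and 43.2 (14.7 to 211) for *Fgg*. All reads with saline came from the first WT library. Without the second, the ratios were 9.70 for *Fga*, 20.1 for *Fgg*, and 6.40 for *Fgb*, and without the second WT FAEE-SAP library 12 for *Fga* and 27.4 for *Fgg*. These intervals, like all intervals and limits of reads given here, cover counting error only and not the spread between mice. As deposited, the log2 fold changes were 3.88 and 4.40, on a scale where the median of all genes was 1.24. Without the second WT saline library, *Fga* no longer passed (log2 fold change 2.47, adjusted p = 0.0509 by limma). Its adjusted p was 0.0811 both with no filter and with a pseudocount of 0.01, and 0.0664 with the replicate block (limma). Without either WT FAEE-SAP library, neither gene reached the minimum in 2 libraries. With a minimum in 1 library, chosen after the data were seen, the log2 fold changes were then 2.42 and 3.48 for *Fga* and 3.02 and 3.94 for *Fgg*, with adjusted p from 0.0744 to 0.223 by limma.

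The comparison of cKO with WT under FAEE-SAP asks whether the genes differ when *Pfkfb3* is deleted in the pancreatic epithelium. *Fga* and *Fgg* were lower in cKO, by a log2 fold change of -3.28 for *Fga* (SE 0.49, adjusted p = 0.0496) and -3.97 for *Fgg* (SE 0.44, adjusted p = 0.0244), by limma with adjustment over 11008 genes, of which 1.27% were called. Here too, both passed the minimum only through the WT libraries, which this comparison shares with the one above, so that its values and those above are not independent. *Fgb*, with 68 reads in WT and 0 in cKO, was not tested and was at least 12.2-fold higher in WT after scaling, against a limit of 3 reads over the cKO group. The bound was 6.23 without the first cKO library and 5.96 without the second. All 3 genes together had 197 and 553 reads in the WT libraries and 1 and 8 in the cKO libraries, a scaled ratio of 44.8 (95% exact interval 23.5 to 98.4). That ratio was 25.8 without the first cKO library and 197 (35.3 to 7803) without the second, which then leaves 1 read. It was 57.3 without the first WT library and 27.8 without the second. The call of *Fga* lay close to the threshold and was lost without the first cKO library (adjusted p = 0.0583 by limma) and with all 8 libraries in 1 model (adjusted p = 0.0650). With pseudocounts of 1 and 0.01 in place of 0.1, adjusted p was 0.0834 and 0.0851 for *Fga* and 0.0513 and 0.0618 for *Fgg*, by limma. With no filter, adjusted p was 0.158 and 0.117, and without either WT library, with a minimum in 1 library, it was from 0.158 to 0.491 (limma), so that neither gene was called. The values as deposited gave log2 fold changes of -3.87 for *Fga* and -4.50 for *Fgg*, on a scale where the median of all genes was -0.91. Libraries are of whole pancreas, so fewer cells of a type and less RNA per cell cannot be told apart.

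In saline, and in cKO mice, the 3 genes were near the limit of detection. No gene of the 3 reached the minimum in cKO against WT with saline, where 0 of 8715 genes (0%) were called by limma and 187 had an unadjusted p under 0.05. The same held for FAEE-SAP against saline in cKO, where 5 of 9423 genes (0.0531%) were called. Summed over the 3 genes, WT saline had 12 and 0 reads, cKO saline 34 and 1, and cKO FAEE-SAP 1 and 8. Most of these reads in cKO saline thus came from the library with enterocyte transcripts. With that library, the scaled ratio of summed reads was 0.193 (95% exact interval 0.0816 to 0.410) for cKO FAEE-SAP over cKO saline. Without it, the ratio was 3.18 (0.441 to 140), from 9 reads against 1. For cKO saline over WT saline, it was 2.92 (1.48 to 6.17) with that library and 0.177 (0.00414 to 1.2) without it. Both ratios turned direction with 1 library, and no direction is read from them.

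The difference between the responses of WT and cKO mice was tested as an interaction over all 8 libraries. It was -3.20 on the log2 scale for *Fga* (SE 0.95, adjusted p = 0.279) and -3.76 for *Fgg* (SE 0.78, adjusted p = 0.167), by limma over 11133 genes, of which 0.0719% were called. Unadjusted p-values were 0.0111 and 0.00166 by limma. Without the first cKO saline library, the interaction was -2.45 for *Fga* (adjusted p = 0.360) and -3.25 for *Fgg* (adjusted p = 0.249), by limma. A smaller response of the fibrinogen genes in cKO than in WT mice therefore did not pass the threshold. With the values as deposited it passed for both, with interactions of -4.02 (adjusted p = 0.0442) and -4.61 (adjusted p = 0.0429, limma), where the median of all genes was -0.63. Both genes entered this test through the WT FAEE-SAP libraries alone, so a large interaction was built in by the minimum, and with no filter adjusted p was 0.399 and 0.282 (limma).

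The chains differed in level. Per length, *Fgg* was higher than *Fga* in both WT FAEE-SAP libraries, with *Fga* at 0.711 and 0.808 times the RPKM of *Fgg*, while the group means differed by less than the spread between the 2 libraries. *Fgb* was 0.147 and 0.105 times *Fgg*. The length behind the *Fgb* value includes a 3′ end that RefSeq does not have, since 1705 of its 3810 exonic bases lie within the RefSeq gene. If all reads fell within that span, RPKM of *Fgb* would be 0.588 and 0.806 in WT FAEE-SAP, and 0.328 and 0.235 times that of *Fgg*, which still left *Fgb* the lowest of the 3. The balance was another in the first cKO saline library, where *Fgb* took 14 of 34 reads (41.2%, 95% exact interval 24.7% to 59.3%), against 11.7% (7.55% to 17.0%) and 8.14% (6.0% to 10.7%) in WT FAEE-SAP. Shares of reads are not corrected for length, and the comparison is of single libraries. RPKM of *Fgb* there was 1.28 times that of *Fgg*, and 2.86 times if all reads fell within the RefSeq span.

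Across the 8 libraries, log2(scaled RPKM + 0.1) of *Fga* and *Fgg* had a Pearson r of 0.988, that of *Fga* and *Fgb* 0.891, and that of *Fgb* and *Fgg* 0.860. These correlations describe 8 libraries in 4 groups that share depth and scaling, and rest largely on WT FAEE-SAP. Without the first cKO saline library, they were 0.993, 0.974, and 0.989. By the same measure over 11133 genes, the genes most like the mean of the 3 were *BC022687* (r = 0.984), *Kansl1l* (0.970), *Senp3* (0.966), *Ntmt1* (0.957), *Arhgap12* (0.957), *Nxt1* (0.956), *Zfp219* (0.956), *Erlin2* (0.955), *Cblc* (0.955), and *Pwp1* (0.954). None of the 10 belonged to a list of coagulation, acute-phase, or IL-6-type genes, and 126 genes had an r above 0.9. The order depended on 1 library. Without the first cKO saline library, 490 genes had an r above 0.9, and 3 of these 10 (*Zfp219*, *BC022687*, and *Cblc*) were still among the 10 most alike. Their scaled RPKM spanned far less than that of the fibrinogen genes, as for *Senp3*, at 2.25 to 2.61 in 6 libraries and 2.89 and 3.07 in WT FAEE-SAP.

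The genes next to the cluster did not share the pattern in size. *Plrg1*, a spliceosome component 5.66 kb above *Fgb*, had a scaled RPKM of 1.98 and 2.29 in WT FAEE-SAP and 1.5 to 1.89 in the other 6 libraries. Its log2 fold change was 0.25 (SE 0.21, adjusted p = 0.497) with FAEE-SAP in WT and -0.22 (SE 0.22, adjusted p = 0.639) in cKO against WT with FAEE-SAP, by limma. *Lrat* was at 0.129 or less in every library, *Dchs2* at 0.0823 or less, *Sfrp2* at 0.140 or less, *Rbm46* at 0.0259 or less, and *Npy2r* at 0.

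**Figure D2:**
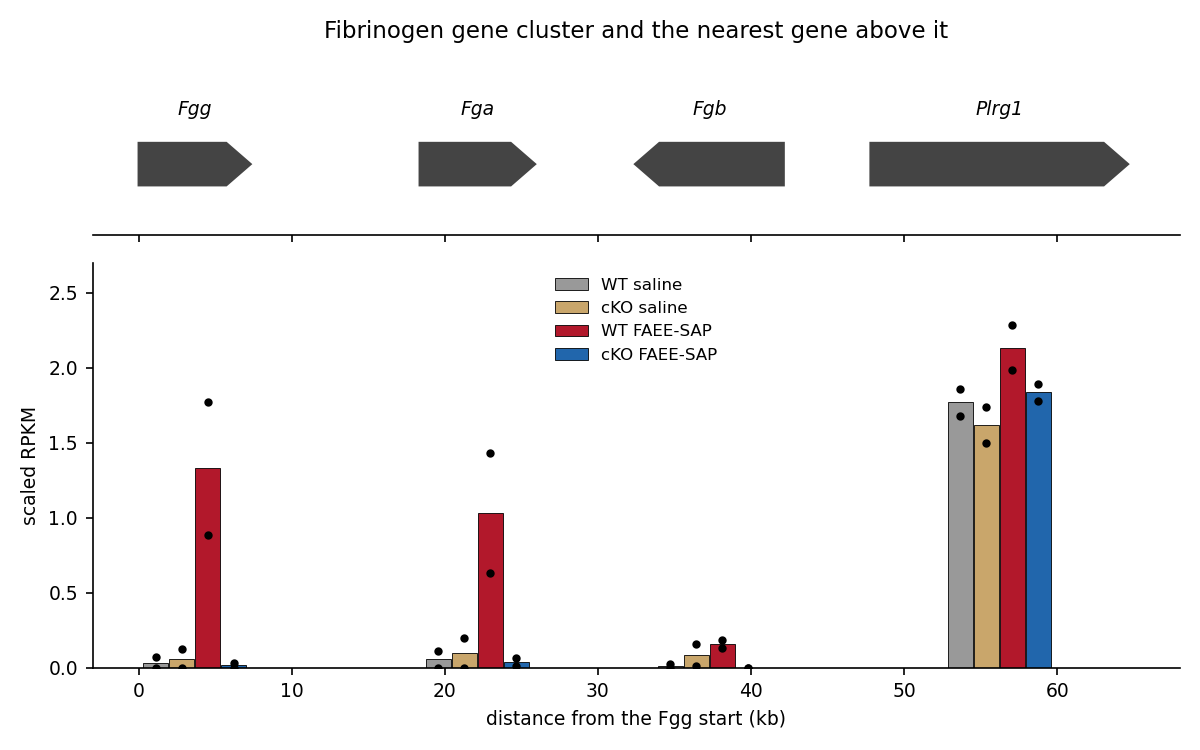
The 3 fibrinogen genes and the adjacent *Plrg1* drawn to scale, with arrows for the direction of transcription (top), and scaled RPKM per group below each gene (bars for means, points for the 2 libraries). The horizontal axis is the distance in kb from the start of *Fgg*. *Fgg* and *Fga* are high in WT FAEE-SAP alone, whereas *Plrg1* lies between 1.5 and 2.29 in all libraries.

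Markers of hepatocytes, the usual source of fibrinogen, were mixed in the libraries where *Fga* and *Fgg* were high. *Alb*, the albumin gene, was at 0.130 and 0 RPKM as deposited in WT FAEE-SAP, and at 0.0966 to 0.587 in WT saline, the second cKO saline library, and cKO FAEE-SAP. *Apoa1*, which encodes the main protein of high-density lipoprotein, was at 0.0706 and 0 in WT FAEE-SAP, while *Cyp3a11*, a drug-metabolizing enzyme of liver and gut, was at 0 in both. Of 15 hepatocyte markers, 4 and 6 were at 0 in the WT FAEE-SAP libraries, beside 3 and 5 in WT saline, 6 and 4 in cKO FAEE-SAP, and 3 in the second cKO saline library. Their summed scaled RPKM was 14.5 and 13.3, against 21.8 and 12.9 in cKO FAEE-SAP and 17.8 and 23.8 in WT saline. The sum of deposited RPKM was higher in WT FAEE-SAP (29.3 and 25.8) than in WT saline (12.9 and 20.6), with *Trf* alone at 18.2 and 17.3. *Ahsg*, which encodes fetuin-A, was likewise highest there as deposited, at 0.858 and 1.37 against 0.0745 to 0.521 in the other 6 libraries, but after scaling it was at 0.424 and 0.707, below the 0.839 of the first cKO saline library. Apart from the first cKO saline library, most of this sum came from *Trf* (transferrin), *Cyp2e1*, and *Ttr* (transthyretin), which is also a gene of pancreatic islets. *Ttr* fell with FAEE-SAP in WT (log2 fold change -2.72, SE 0.25, adjusted p = 0.00530, limma) and was higher in cKO than in WT with FAEE-SAP (1.93, SE 0.26, adjusted p = 0.0403, limma). Of the 5 hepatocyte markers tested with FAEE-SAP in WT, 0 rose and 1 fell, beside 6.93% called over all genes, with a median of -0.43, and *Trf* was at 1.03 (adjusted p = 0.114, limma).

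The first cKO saline library was the exception. Its 15 hepatocyte markers summed to 55.7 scaled RPKM, with *Alb* at 1.38, *Apoa1* at 6.51, and *Cyp3a11* at 2.44 RPKM as deposited, and none was at 0. Enterocyte markers summed to 26.0 scaled RPKM there and to 0.273 or less in the other 7 libraries. *Apoa1* and *Cyp3a11* are expressed in intestine as well as in liver. The 14 reads each of *Fga* and *Fgb* in this library stood beside these transcripts, whose part in them was not tested.

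**Figure D3:**
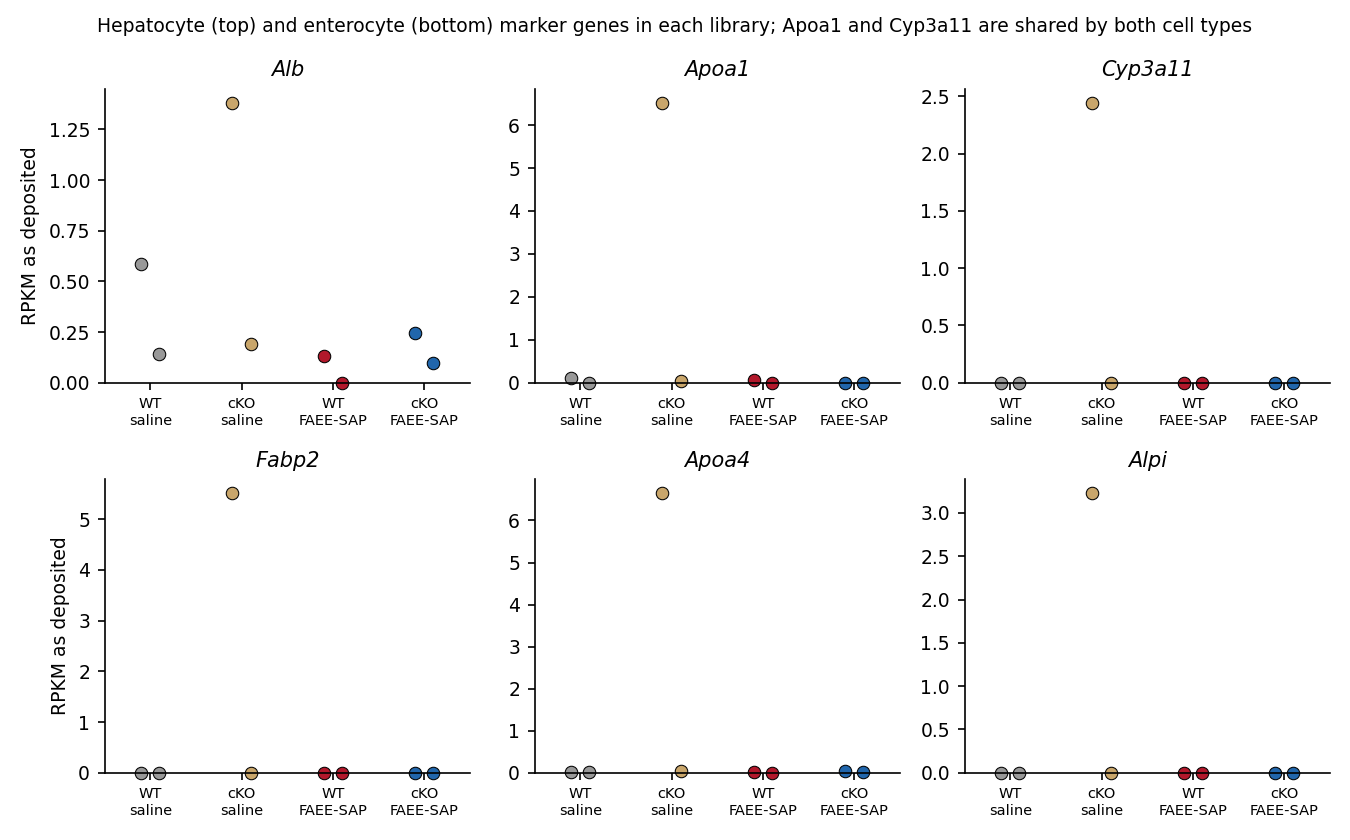
RPKM as deposited of 3 hepatocyte markers (top, *Alb*, *Apoa1*, *Cyp3a11*) and 3 enterocyte markers (bottom, *Fabp2*, *Apoa4*, *Alpi*) in each library, with axes that differ between genes. All 6 are highest in the first cKO saline library, and in WT FAEE-SAP *Alb* is at 0.130 and 0.

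Acinar markers moved in the opposite direction to *Fga* and *Fgg* in the 2 comparisons that share the WT FAEE-SAP libraries. With FAEE-SAP against saline in cKO mice, where no direction is read for the fibrinogen genes, all 9 acinar markers were lower as well. Their median there was -0.81 beside -0.011 over all genes, and 0 were called, beside 0.0531% over all genes. In WT, all 9 acinar cell markers fell with FAEE-SAP and passed the thresholds of a call (limma), beside 6.93% called over all genes. Their median log2 fold change was -2.0, beside 0.017 over all genes. All 9 were also lower as deposited, by smaller amounts (*Ctrb1* by 0.11 and *Bhlha15* by 2.17). Among the 5 with the largest changes, *Bhlha15*, a transcription factor of secretory cells, fell by 3.47 and *Rnase1* by 3.32, and *Pnlip*, *Cel*, and *Cpa1*, which encode digestive enzymes, by 2.28, 2.16, and 2.0. In cKO against WT with FAEE-SAP, 5 of the 9 were called higher, beside 1.27% called over all genes, with positive values for all 9 and with *Bhlha15* at 2.91 (adjusted p = 0.0350), *Ctrb1* at 1.46 (0.0274), *Cpa1* at 1.45 (0.0180), *Pnlip* at 1.28 (0.0403), and *Prss2* at 1.26 (0.0248), by limma. As deposited, these differences were 1.97, 0.50, 0.49, 0.32, and 0.31, and *Ptf1a*, an acinar transcription factor, was no longer higher (7.81 and 5.45 RPKM in cKO, 8.41 and 5.57 in WT). Leukocyte markers were mixed. Of 6 tested, 3 had positive and 3 negative values with FAEE-SAP in WT, with a median of 0.35. In cKO against WT with FAEE-SAP, 3 were again positive and 3 negative, with a median of -0.026. Those called were neutrophil genes, 2 and 1 of the 6, beside 6.93% and 1.27% called over all genes. *S100a8* rose by 5.88 and *S100a9* by 5.15 with FAEE-SAP in WT, and *S100a8* was lower in cKO (-2.32, adjusted p = 0.0302), whereas *S100a9* was at -1.70 (adjusted p = 0.0517), by limma. In cKO mice, both neutrophil genes were also higher with FAEE-SAP than with saline. Scaled RPKM there was 4.39 and 2.63 against 0.98 and 0.345 for *S100a8*, and 12.1 and 7.62 against 1.39 and 0.459 for *S100a9*. The part of these changes in cell makeup in the fibrinogen values was not tested.

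IL-6-type cytokines and the factors that act on fibrinogen promoters in the liver were examined next. *Il6* itself was under the minimum, at a scaled RPKM of 0.248 and 0.117 with FAEE-SAP in WT, 0.0570 and 0.0137 with FAEE-SAP in cKO mice, 0 and 0 in WT saline, and 0 and 0.0592 in cKO saline. Both WT FAEE-SAP libraries lay above the other 6. Of 22 genes, 18 were tested, and 3 rose and 0 fell with FAEE-SAP in WT, beside 6.93% called over all genes, with a median of 0.27 beside 0.017. *Socs3*, the feedback inhibitor that STAT3 induces, rose by 3.26 (SE 0.28, adjusted p = 0.00458), *Stat3* by 1.77 (SE 0.36, adjusted p = 0.0429), and *Cebpb*, a C/EBP factor, by 1.32 (SE 0.24, adjusted p = 0.0342), by limma. In cKO against WT with FAEE-SAP, 0 of the 18 passed, beside 1.27% over all genes, and the median was -0.17. *Socs3* was at -1.69 (adjusted p = 0.154), with scaled RPKM of 5.26 and 1.94 in cKO and 12.5 and 8.70 in WT. *Stat3* was at -1.40 (adjusted p = 0.145), with 3.08 and 4.26 in cKO and 6.79 and 13.5 in WT. Neither gene overlapped between the genotypes. *Il6ra*, the receptor subunit, was at 0.28 with FAEE-SAP in WT (adjusted p = 0.688) and -0.63 in cKO against WT (adjusted p = 0.516), by limma.

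Genes of other acute-phase proteins of the IL-6 type rose with FAEE-SAP in WT as well. Of 14 genes, 7 were tested, and 4 rose and 0 fell, beside 6.93% called over all genes, with a median of 1.68 beside 0.017. *Hp*, encoding haptoglobin, which binds free hemoglobin, rose by 4.22 (SE 0.28, adjusted p = 0.00279), and *Serpina3n*, a serine protease inhibitor, by 4.12 (SE 0.28, adjusted p = 0.00288), by limma. *Lbp*, which encodes lipopolysaccharide binding protein, and *Cp*, which encodes ceruloplasmin, rose by 1.68 and 1.11. In cKO against WT with FAEE-SAP, 6 of the 7 were lower, with a median of -2.29 beside -0.0078 over all genes, and 1 was called, beside 1.27% over all genes, *Serpina3n* (-2.29, SE 0.22, adjusted p = 0.0180, limma). Scaled RPKM of *Hp* was 49.4 and 80.5 with FAEE-SAP in WT, 18.8 and 3.65 with FAEE-SAP in cKO mice, 2.89 and 3.74 in WT saline, and 9.70 and 3.10 in cKO saline. The groups with FAEE-SAP did not overlap, but the cKO libraries differed widely, and the difference of -2.92 had an SE of 0.73 (adjusted p = 0.130, limma). Levels with saline differed within the list. *Hp*, *Cp*, and *Serpina3n* were at 2.19 or more in each of the 4 saline libraries, whereas *Orm1*, which encodes an orosomucoid and was looked up after the values were seen, was at 0.250 or less there. Its scaled RPKM was 0.584 and 3.07 with FAEE-SAP in WT and 0.223 and 0 with FAEE-SAP in cKO mice, and it passed neither test (adjusted p = 0.0963 and 0.158, limma). The Pearson r with the mean of the 3 fibrinogen genes over the 8 libraries was 0.835 for *Hp*, 0.738 for *Stat3*, and 0.639 for *Socs3*, and without the first cKO saline library 0.841, 0.936, and 0.731.

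**Figure D4:**
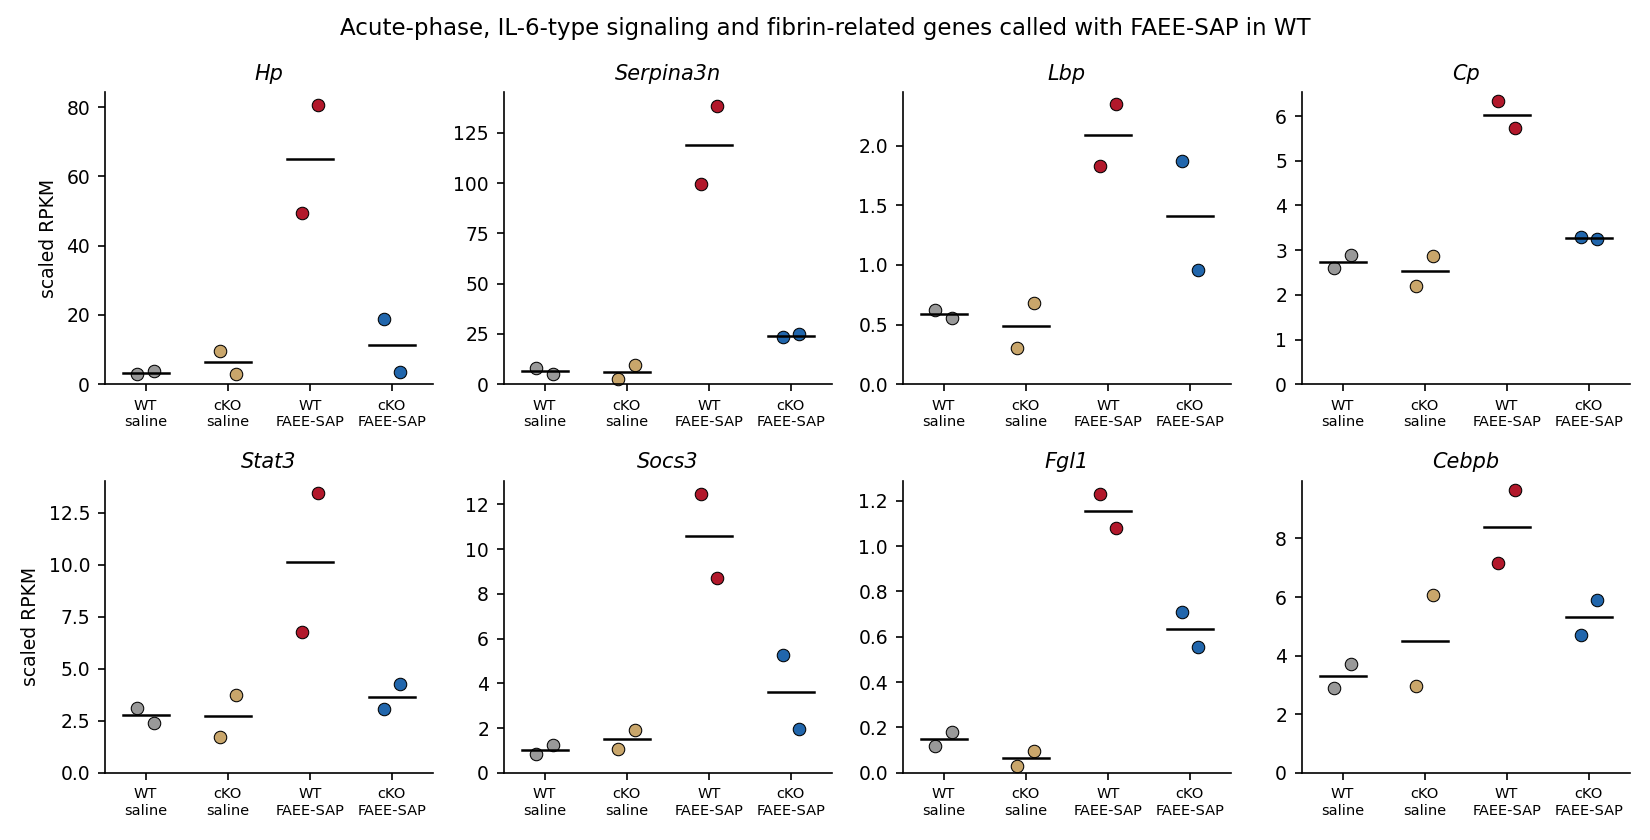
Scaled RPKM of 8 genes called higher with FAEE-SAP in WT, in each library (points) with group means (lines) and axes that differ between genes. WT FAEE-SAP is highest in every panel except for *Lbp*, where a cKO FAEE-SAP library at 1.87 lies between the WT libraries at 1.83 and 2.35.

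Plasma proteins of coagulation and fibrinolysis, which hepatocytes make along with fibrinogen, were mostly under the minimum. Of 21 genes, 4 were tested with FAEE-SAP in WT, and 0 rose and 1 fell, beside 6.93% called over all genes, although 3 of the 4 had positive values and the median was 0.86. *Vtn*, which encodes vitronectin, fell by 2.09 (SE 0.20, adjusted p = 0.00576, limma), from 14.2 and 13.3 scaled RPKM in WT saline to 3.53 and 2.86. As deposited, the difference was -0.78, and *Vtn* overlapped between the genotypes with FAEE-SAP (7.15 and 5.54 in WT, 8.48 and 6.88 in cKO). Scaled RPKM was 8.10 and 7.06 in cKO FAEE-SAP, and the difference between the genotypes was 1.22 (adjusted p = 0.0761, limma). Of 5 genes tested in cKO against WT with FAEE-SAP, 0 were called, beside 1.27% over all genes, and the median was 0.90. Prothrombin (*F2*) was at 0.151 to 0.714 scaled RPKM in the FAEE-SAP libraries, and plasminogen (*Plg*), the precursor of the fibrin-degrading enzyme, was at 0 in all 4.

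Genes of tissue and vessels that start, limit, or dissolve clots were better represented, with 17 of 18 tested. With FAEE-SAP in WT, the median was 0.72. *F3*, the tissue factor that starts coagulation, was at -0.34 with FAEE-SAP in WT and 0.27 in cKO against WT. *F13a1*, the A subunit of the crosslinking factor XIII, was at 0.72 and 1.10. *Plat* and *Plau*, the plasminogen activators, were at 0.98 and -1.13 with FAEE-SAP in WT and at -0.43 and 1.28 in cKO against WT. *Plaur*, the urokinase receptor, was at 1.91 and -0.97, and *Thbd*, encoding thrombomodulin, at -0.099 and 0.17. None of these 6 passed the test in either comparison (adjusted p from 0.0695 to 0.837, limma), and 0 of the 17 passed in cKO against WT with FAEE-SAP, beside 1.27% over all genes, where the median was 0.17.

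Of 11 receptors for fibrin and fibrinogen, 9 were tested and 0 were called in either comparison, beside 6.93% and 1.27% over all genes. The medians were 0.54 and -0.014. Genes with a fibrinogen-like domain were mixed. Of 18, 9 were tested, and 1 rose and 2 fell with FAEE-SAP in WT, beside 6.93% called over all genes, with a median of -0.74. *Fgl1*, a liver-derived relative of the fibrinogen chains that also responds to IL-6, rose by 2.42 (SE 0.28, adjusted p = 0.0106, limma). Its scaled RPKM was 1.23 and 1.08 with FAEE-SAP in WT and 0.711 and 0.553 with FAEE-SAP in cKO mice, against 0.120 and 0.181 in WT saline and 0.0289 and 0.0972 in cKO saline. The difference between the genotypes with FAEE-SAP was -0.82 (SE 0.26, adjusted p = 0.181, limma), and unlike *Fga* and *Fgg*, both cKO FAEE-SAP libraries of *Fgl1* lay above all saline libraries. *Angptl1*, an angiopoietin-like gene, fell by 3.0, and *Fcna*, a ficolin of the lectin complement pathway, by 1.05, although *Fcna* was higher by 0.22 in the values as deposited. *Fcna* was the 1 gene of this list called in cKO against WT with FAEE-SAP, where it was higher (1.81, SE 0.26, adjusted p = 0.0450, limma), and the median of the list was 0.98.

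**Figure D5:**
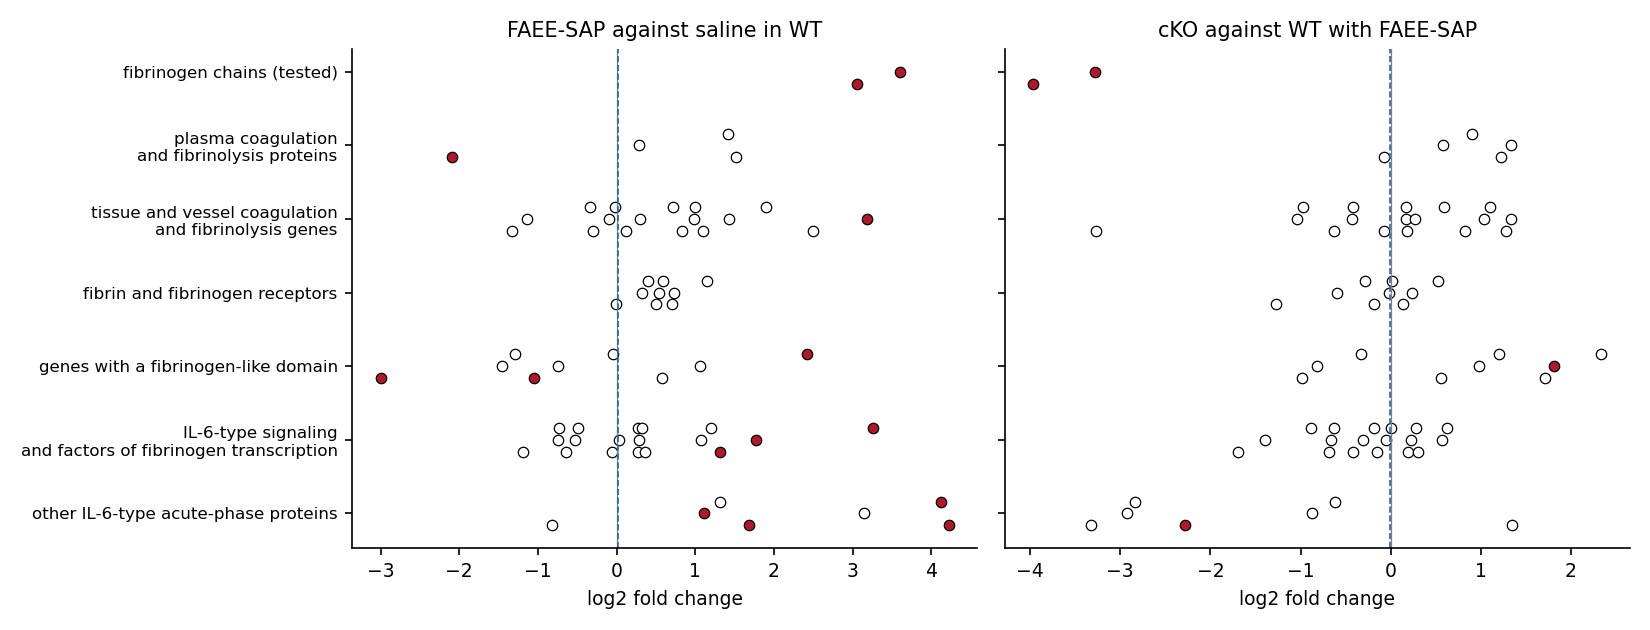
Log2 fold change of every tested gene (points) of the fibrinogen chains and of 6 lists, for FAEE-SAP against saline in WT (left) and cKO against WT with FAEE-SAP (right). Filled points were called, the solid line marks 0, and the dashed line the median of all genes tested. *Fga* and *Fgg* are at 3.05 and 3.61 on the left and at -3.28 and -3.97 on the right, and points were offset vertically for display.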

How the data were processed

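Pancreas RNA-Seq libraries, 2 in each of 4 groups, were assigned by their labels. Per the study's methods, paired-end reads of a directional library were filtered with fastp and mapped to GRCm38 (GRCm38.p6 in the submitters' processing notes) with CLC Genomics Workbench. How RPKM were computed, and whether strand was used in counting, is not given in the sources used here. The authors deposited RPKM for 48709 genes per library, the unit used throughout. Exonic lengths of GENCODE vM21, matched by symbol for 46319 genes, and the RPKM gave library totals at which 84.0% to 85.5% of the values under 20 reads were whole within 0.1 reads. Reads over all matched genes summed to 100.3% to 105.7% of these totals, so reads are approximate, and whether reads or pairs were counted was not settled.

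Libraries of a comparison were scaled by the median of ratios over the genes tested that were above 0 in all of them. Genes with at least 0.5 RPKM in at least 2 libraries were tested with limma 3.58.1 (R 4.3.3, intensity trend) on log2(scaled RPKM + 0.1). Calls needed an adjusted p under 0.05 (Benjamini-Hochberg) and a 2-fold change. Printed levels are scaled over all 8 libraries. An exact permutation test of 2 against 2 libraries cannot go below p = 0.333. The script was tested on simulated data. Ratios of summed reads carry 95% exact binomial intervals. Alternatives were values as deposited, no filter, pseudocounts of 1 and 0.01, replicate number as a block, all 8 libraries in 1 model, and each library left out.

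The 3 genes and the lists were chosen with earlier results of these data known. Named genes were the 3 members, 16 genes fixed by name, up to 5 called genes per list and comparison, the 10 most alike by Pearson r, and the 3 nearest coding genes on each side. Values of some genes of these lists are not reported here. Python 3.11.15, pandas 2.3.3, and scipy 1.17.1 were used.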

Additional observations from a re-analysis of the deposited data

Results flagged for a closer look

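Libraries of *Fgb* with FAEE-SAP lay on opposite sides of those with saline in the genotypes. In WT, both FAEE-SAP libraries (scaled RPKM 0.130 and 0.186) lay above both saline libraries (0.0254 and 0). In cKO, both FAEE-SAP libraries (0 and 0) lay below both saline libraries (0.157 and 0.0126), the second of which held 1 read. *Fgb* was under the RPKM minimum, so the difference was not tested with the filter used here. Without the filter, the interaction was -1.96 on the log2 scale and did not pass (adjusted p = 0.388, limma). Without the first cKO saline library, cKO had 1 read with saline and 0 with FAEE-SAP, which gives no direction.

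*Plau*, which encodes urokinase, a plasminogen activator, also lay on opposite sides after scaling. In WT, scaled RPKM was 2.11 and 1.59 with saline and 1.55 and 0.391 with FAEE-SAP. In cKO, it was 1.62 and 1.37 with saline and 2.34 and 1.78 with FAEE-SAP. As deposited, the WT values overlapped, at 1.53 and 1.37 with saline and 3.13 and 0.756 with FAEE-SAP, so the order in WT depended on the scaling. The interaction of 1.53 did not pass the threshold (adjusted p = 0.441, limma).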

How the results depend on the processing

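In the 2 comparisons in which *Fga* and *Fgg* were called, and in the interaction, their direction was the same under every alternative run, but their calls were not. In cKO against WT with FAEE-SAP, where 2 of the 3 genes were called, 0 were called with no filter, 0 with a pseudocount of 1, 0 with a pseudocount of 0.01, 1 with all 8 libraries in 1 model, and 0 to 2 with each library left out. *Fga* was at -3.28 with no filter (adjusted p = 0.158), -1.18 with a pseudocount of 1, -4.71 with 0.01, -2.96 with all 8 libraries in 1 model, -3.79 to -2.96 with each cKO library left out, and -3.73 and -2.65 with each WT library left out. *Fgg* was at -3.97 with no filter (adjusted p = 0.117), -1.46 with a pseudocount of 1, -6.25 with 0.01, -4.41 to -3.78 with each cKO library left out, and -4.31 and -3.38 with each WT library left out. With FAEE-SAP in WT, 1 of the 2 called genes remained with no filter, 1 with a pseudocount of 0.01, and 0 to 2 with each library left out. In that comparison, *Fga* was at 3.05 with no filter (adjusted p = 0.0811, limma), 1.06 with a pseudocount of 1, and 4.94 with 0.01. It was at 2.47 to 3.94 with each saline library left out and 2.42 to 3.48 with each FAEE-SAP library left out. *Fgg* was at 1.32 with a pseudocount of 1, 5.66 with 0.01, and 3.02 to 4.31 with each library left out. In the interaction, where 0 were called, 2 were called as deposited (*Fga* -4.02, *Fgg* -4.61), and 0 with any library left out. Values of *Fga* and *Fgg* without a WT FAEE-SAP library use a minimum in 1 library, an alternative added after seeing the data. The bound for *Fgb* in WT over cKO with FAEE-SAP, 12.2, was 23.8 as deposited and 5.96 to 14.0 with each library left out.

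Over all genes, 140 were called in cKO against WT with FAEE-SAP (95 higher, 45 lower), 4427 as deposited (73 higher, 4354 lower), 0 with no filter, 295 with all 8 libraries in 1 model, and 0 to 139 with each library left out. For saline, the count of 0 became 2 as deposited (0 higher, 2 lower) and stayed at 0 with each library left out. With FAEE-SAP in WT, 755 (335 higher, 420 lower) became 7270 as deposited (7184 higher, 86 lower), 269 with no filter, 97 to 491 with each library left out, and, with the minimum in 1 library, 0 to 18 without each FAEE-SAP library. With FAEE-SAP in cKO, 5 became 15 as deposited, 0 with no filter, 15 with all 8 libraries in 1 model, and 0 to 6 with each library left out. For the interaction, 8 became 791 as deposited (21 higher, 770 lower), 0 with no filter, 24 with a pseudocount of 1, 1 with 0.01, and 0 to 4 with each library left out. The cause was not tested, but no filter adds genes near 0, and leaving a library out leaves a group with 1, assumed to vary like the others.

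Groups share only replicate numbers. Same-numbered deviations had correlations of 0.313 in cKO against WT with FAEE-SAP, -0.395 with saline, -0.175 for FAEE-SAP in WT, and 0.450 in cKO. With the replicate block, 568, 0, 442, and 52 genes were called, and 0 in the interaction. Of the fibrinogen genes, 2 were called in cKO against WT with FAEE-SAP and 1 with FAEE-SAP in WT, where *Fga* stayed at 3.05 (adjusted p = 0.0664, limma). Crossed pairing, added after seeing the data, gave 0 calls with saline and 822 with FAEE-SAP in WT.

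Depth limits the low groups, in which 3 reads correspond to an RPKM of 0.0255 to 0.0524 in the libraries at 0.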

Other observations

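Markers of other cell types were also summed. Duct cell markers summed to 31.0 to 51.7 scaled RPKM in the saline libraries, and with FAEE-SAP to 68.5 to 70.7 in WT and 67.3 to 67.4 in cKO mice. As deposited, these sums with FAEE-SAP were 143 and 133 in WT and 70.6 and 65.7 in cKO mice, so the likeness of the genotypes depended on the scaling. Of these genes, *Spp1*, which encodes osteopontin, rose with FAEE-SAP in WT (log2 fold change 1.79, adjusted p = 0.0326, limma). The rise of the scaled duct sum in WT rested on it, at 9.08 and 17.5 with saline and 42.0 and 45.9 with FAEE-SAP. Of 4 duct genes tested there, 2 had positive and 2 negative values. *Muc1* was at 24.9 and 22.7 scaled RPKM with saline and 16.2 and 10.6 with FAEE-SAP in WT. Platelet and megakaryocyte markers summed to 1.10 to 4.18 with saline and, with FAEE-SAP, to 3.81 and 7.34 in WT and 13.3 and 11.8 in cKO mice, and *Ppbp*, a chemokine of platelet granules, rose in WT (2.35, adjusted p = 0.0273, limma). As deposited, the platelet sums with FAEE-SAP overlapped between the genotypes, at 7.70 and 14.2 in WT and 14.0 and 11.5 in cKO mice. Most of each platelet sum came from *Pf4*, while *Gp9*, *Gp1ba*, *Gp1bb*, and *Gp6* were at 0.151 scaled RPKM or less in every library. Of the 6 platelet genes, 2 were tested with FAEE-SAP in WT. Mesothelial markers summed to 2.35 to 5.71 with saline and, with FAEE-SAP, to 1.23 and 1.12 in WT and 4.54 and 1.61 in cKO mice. As deposited, they overlapped, at 2.49 and 2.18 in WT and 4.75 and 1.57 in cKO mice with FAEE-SAP and 1.71 and 2.73 in WT saline. Endothelial markers summed to 10.3 to 12.2 with saline and, with FAEE-SAP, to 11.1 and 10.4 in WT and 16.8 and 12.5 in cKO mice. As deposited, the order of the genotypes turned, with 22.5 and 20.2 in WT and 17.6 and 12.2 in cKO mice beside 7.82 and 10.6 in WT saline. By limma, 0 genes of the mesothelial list (1 to 4 tested) and of the endothelial list (4 to 5 tested) were called in any comparison. Over all genes, 0% to 6.93% were called, so these counts say nothing about the lists. Leukocyte markers summed to 50.7 to 66.7 with saline and, with FAEE-SAP, to 121 and 91.8 in WT and 92.1 and 71.9 in cKO mice, and as deposited to 245 and 178 in WT and 96.3 and 70.1 in cKO mice, where the genotypes no longer overlapped.

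In cKO mice, *Serpina3n* and *Fgl1* were higher in both FAEE-SAP libraries than in both saline libraries, as were *Lbp*, *Cp*, and *Socs3*. All 5 acute-phase genes tested there had positive values, with a median of 1.35 beside -0.011 over all genes. No gene of the acute-phase, IL-6-type, or fibrinogen-like lists was called there by limma. Over all genes 0.0531% were called there, a share at which no call among so few genes says nothing about the lists. *Serpina3n* was at 23.6 and 24.9 scaled RPKM with FAEE-SAP and 2.38 and 9.70 with saline.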
